A study of Mus musculus with 9 samples.

Results

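Among 9 sequenced libraries of sorted mouse bone marrow cells, 4 form the subject here: libraries 8 and 9, which had high Hoxb5, and libraries 1 and 2, which had low Hoxb5. The deposited table holds 9 rows without names, so libraries are numbered by row, as a name only, and no row can be assigned to a labelled sample. The 4 libraries were chosen by their measured values. Ly6a, which encodes Sca1, had to be under 1000 normalized counts. Within the libraries that met this, the high pair had Hoxb5 of at least 50, and the low pair had Hoxb5 under 50 and Csf1r of at least 20. Just inside these limits lay Ly6a at 187, Hoxb5 at 112 and Csf1r at 64.0 normalized counts. Just outside lay Ly6a at 4256 (library 3), Hoxb5 at 11.8 (library 2) and Csf1r at 8.69 (library 5). The high pair had no limit on Csf1r, which was 15.7 in library 8 and 82.6 in library 9. Csf1r alone therefore does not separate the pairs. Of the 5 other libraries, 3 and 4 exceeded the Ly6a limit, and 5, 6 and 7 met neither condition.

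The labels describe male C57BL/6 mice that carry Flt3-cre and the mTmG reporter, called FlkSwitch, in which Flt3 regulatory sequence drives the recombinase. A cell and its descendants change from the red protein Tomato (Tom) to GFP once Cre has acted, so Tom+ cells are those whose ancestry did not switch. Megakaryocyte progenitors (MkP) were sorted as Lin-, cKit+, Sca1-, CD150+ and CD41+. Young mice of 3 months gave 3 samples, all GFP+ MkP. Old mice, of 18 to 20 months, gave 2 samples of Tom+ haematopoietic stem cells (Lin-, cKit+, Sca+, CD150+, Flk2-), 2 of Tom+ MkP and 2 of GFP+ MkP. Neither pair of libraries can be given one of these labels, since nothing but the values separates them. A difference between the pairs is therefore a description of 4 libraries and not a comparison of reporter colour or age. No mean or SD across libraries and no test between the pairs was computed, and nothing states whether the samples came from separate animals.

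Megakaryocyte progenitors give rise to megakaryocytes, the large marrow cells that shed platelets, and some arise from stem cells by a direct route. Stem cells hold a quiescent programme of transcription factors, surface receptors and imprinted growth suppressors, whereas committed progenitors divide and build up integrins, platelet receptors and granule proteins. Hoxb5 is a homeobox transcription factor known as a marker of long-term stem cells.

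All 4 libraries carried the transcript of the sorted integrin far above libraries 3 and 4. Itga2b, which encodes CD41, had 76148 normalized counts in library 1, 60607 in library 2, 68308 in library 8 and 45798 in library 9. In libraries 3 and 4 it had 1616 and 6543. Ly6a had 42.6, 94.2, 71.3 and 187 in libraries 1, 2, 8 and 9. The ranges of the pairs overlapped for both genes. Kit, whose protein cKit was a sort marker, had 36.1, 33.4, 198 and 67.4 in the same order, and both high-Hoxb5 libraries were above both low-Hoxb5 libraries. Slamf1 and Flt3, the other sort genes, were not analysed here. Reads recovered from the table numbered 2017666, 1868577, 2749320 and 4373460 (libraries 1, 2, 8 and 9). A count of 0 in them allows up to 4.92, 5.89, 3.15 and 2.17 normalized counts, which is the value of 3 reads. Intervals below cover counting error only. In bulk libraries such as these, fewer cells of a type and less RNA per cell cannot be told apart.

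The pairs were not compact. Values were compared between single libraries as a ratio after adding 1, over 2341 of 2402 genes, those that reached 10 normalized counts in 2 or more of the 9 libraries. Libraries 8 and 9 were at least 2-fold apart for 336 genes (14.4%), and libraries 1 and 2 for 360 (15.4%). Across the pairs, library 9 differed this much from library 2 in 370 genes (15.8%) and from library 1 in 409 (17.5%). Library 8 differed from library 1 in 537 genes (22.9%) and from library 2 in 680 (29.0%). Library 9 thus lay about as far from library 2 as from its partner, and library 8 lay further from both. Spearman's rho across genes, which are not independent replicates, was 0.976 between libraries 8 and 9 and also 0.976 between libraries 9 and 2, with 0.945 between libraries 8 and 2.

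**Figure D1:**
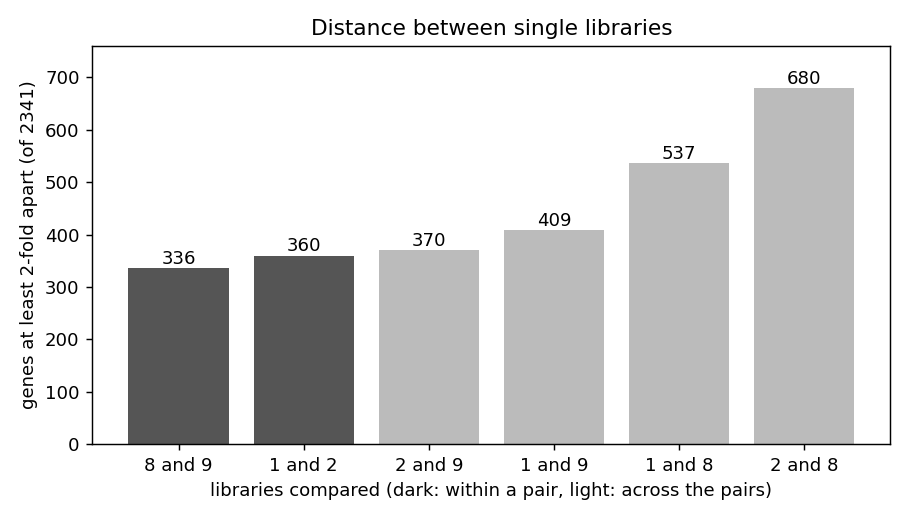
Number of genes at least 2-fold apart (of 2341, vertical axis) for each of the 6 comparisons between single libraries, dark within a pair and light across the pairs. Libraries 2 and 9 (370 genes) are nearly as close as libraries 1 and 2 (360) or 8 and 9 (336), and libraries 2 and 8 are furthest apart (680).

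Genes were counted as separated where both libraries of one pair lay above both of the other, by any amount. Libraries 8 and 9 were both above libraries 1 and 2 for 620 of 2341 genes (26.5%) and both below for 512 (21.9%), and the pairs overlapped for the other 1209 (51.6%). With reads scaled to the table total the counts were 899 above and 298 below, so the share above among separated genes was 75.1% rather than 54.8%. A gap of at least 2-fold between the nearest libraries was found above for 114 genes (4.87%) and below for 30 (1.28%). These percentages are the background for the lists that follow. The counts rest on which libraries are required, and leaving out library 1, 2, 8 or 9 gave 210, 236, 136 and 273 genes above and 77, 50, 48 and 100 below. Since the pairs were chosen by value, the counts are given with no test.

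The genes furthest above in libraries 8 and 9 included Ndn and Gata3 of the stem cell list. Ndn encodes necdin, an imprinted growth suppressor. It had 57.4 and 100 normalized counts in libraries 1 and 2 against 804 and 718 in libraries 8 and 9, and its nearest values were 7.17-fold apart (95% exact interval 5.41 to 9.70). Tgm2, a protein-crosslinking transglutaminase, had 102 and 149 against 1859 and 1014. The high pair was well clear of the low pair for both genes, and was uneven for Tgm2. Bex1, a signalling adaptor, had 32.8 and 25.5 against 321 and 232. Ldhb, the B subunit of lactate dehydrogenase, had 146 and 190 against 1625 and 873. Art4, an ADP-ribosyltransferase that carries the Dombrock blood group, had 177 and 108 against 1884 and 797. These are genes of unlike function, and in each of them library 8 was the highest of the 4. Clec1a, a C-type lectin receptor, had 57.4 and 55.0 against 483 and 259, Pglyrp2, a peptidoglycan-recognition amidase, 39.4 and 45.1 against 468 and 226, and Mboat2, a phospholipid acyltransferase, 9.84 and 13.7 against 115 and 67.4. Nearest values were 4.52-fold, 5.01-fold and 4.90-fold apart for these, with a wide interval for Mboat2 (2.29 to 12.5). In mm10 with GENCODE M21, Ndn is a protein-coding gene on chromosome 7 from 62346569 to 62350262, and Tgm2 one on chromosome 2 from 158116402 to 158146436.

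**Figure D2:**
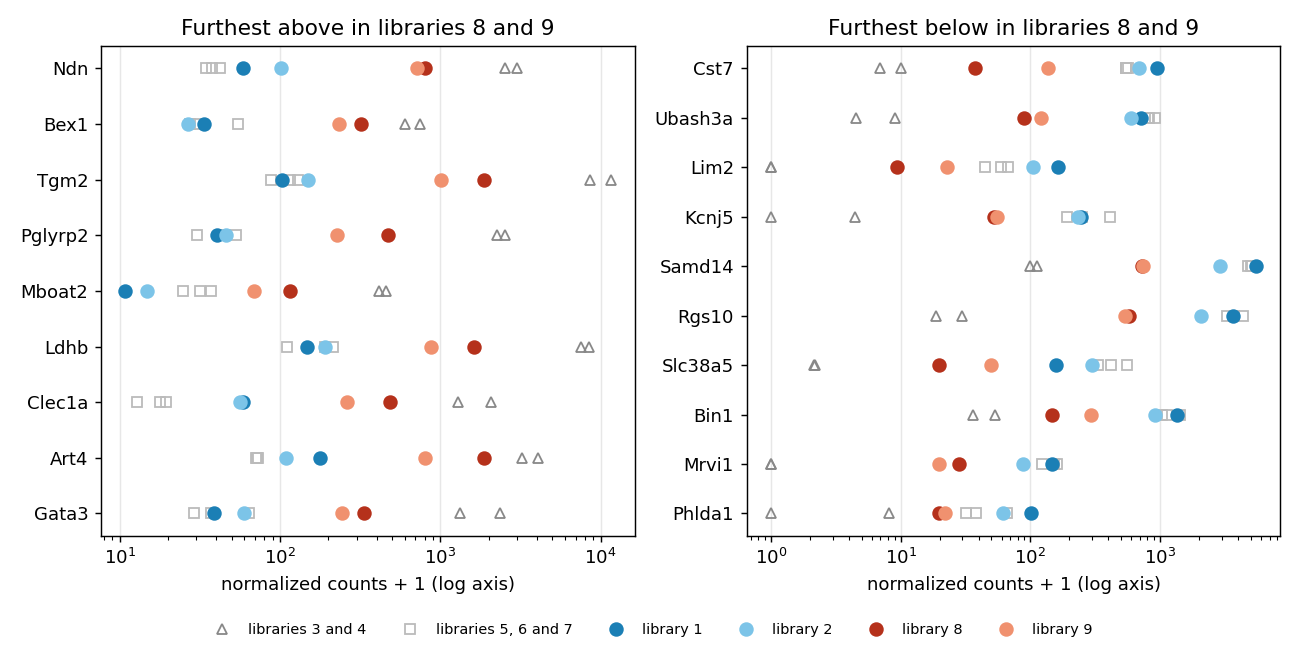
Normalized counts plus 1 (log axis) in every library for the genes whose nearest values were furthest apart, above (left, 9 genes) and below (right, 10 genes) in libraries 8 and 9. Libraries 8 and 9 (red shades) lie between libraries 1 and 2 (blue shades) and libraries 3 and 4 (triangles) for each gene shown, as for Ndn with 804 and 718 against 57.4 and 100 and against 2994 and 2546.

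Of the list of stem cell genes, 16 of 31 members were measured and passed the filter. Both libraries of the high pair were higher for 10 of them and both lower for 0. The gap was at least 2-fold for 5, where the background shares were 26.5% and 4.87%. The list was chosen with earlier results of these data known, and Hoxb5, which chose the libraries, is itself a stem cell marker. These shares are thus a description only. The list's median log2 ratio was 1.63 for library 8 over library 1, 1.87 for 8 over 2, 1.04 for 9 over 1 and 1.01 for 9 over 2, beside 0.051, 0.016, 0.069 and -0.0096 over all 2341 genes. Gata3, a zinc-finger transcription factor, had 37.7 and 58.9 in libraries 1 and 2 against 331 and 243 in libraries 8 and 9. Cdkn1c, the cell cycle inhibitor p57, had 11.5 and 43.2 against 165 and 127, and Mllt3, a chromatin reader that maintains stem cells, 72.2 and 74.6 against 269 and 165. The separation of Emcn, a sialomucin, rests on few reads, with 4.92 and 1.96 against 13.6 and 19.6 and an interval from 0.761 to 15.2 around its nearest ratio of 2.77. For 6 members the pairs overlapped. Procr, the protein C receptor that marks stem cells, was high in library 8 alone, with 97.5 against 17.4 in library 9, 23.0 in library 1 and 31.4 in library 2. Ly6a, which the choice of libraries used, is another. Without library 9 the gap was at least 2-fold for 12 members, without library 1 for 8, without library 2 for 7 and without library 8 for 5. In the same order it was at least 2-fold above for 273, 210, 236 and 136 of all 2341 genes. Without library 8, 2 members were below by any amount, beside 759 of all 2341 genes.

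Of 14 homeobox genes and cofactors listed with Hoxb5, 9 were measured. Of these, 7 were above and 0 below, a count that includes Hoxb5 itself, which chose the libraries. Hoxb2, of the same cluster, had 9.84 and 3.93 against 49.3 and 41.3, and Hoxa10 had 55.8 and 58.9 against 151 and 180. Both were clear of the low pair by at least 2-fold. Pbx3, a homeobox cofactor, had 27.9 and 37.3 against 77.6 and 59.4. Hoxa9 overlapped, with 68.9 and 27.5 against 54.5 and 38.4, and so did Hoxa7. Hoxb6 and Hoxb8 are among the 7 but were near the floor in all 4 libraries, with at most 8.39, and were no longer separated with values under 3 reads raised to 3 reads. Over the 9 libraries the genes ranked exactly as Hoxb5 included Erg, an ETS transcription factor of stem cells and megakaryocytes (57.4, 82.4, 171 and 84.7 in libraries 1, 2, 8 and 9), Fam107b, Mettl7a1 and Gramd1a (Spearman's rho 1.00 for each). They were picked for this order, so their separation between the pairs follows from the choice and is no finding.

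A few further genes were picked out after their values were seen, so they stand for no group. Snrpn, Snurf and Grb10 are imprinted genes, as Ndn and Cdkn1c are. Snrpn and Snurf, which share a transcript so that their reads cannot be told apart, had 8.20 and 9.81 each in libraries 1 and 2, and 53.5 and 26.1 (Snrpn) in libraries 8 and 9. Grb10, an adaptor that restrains growth factor signalling, had 4.92 and 9.81 against 61.9 and 34.0. Prdm16, a stem cell transcription regulator that is not imprinted, had 9.84 and 11.8 against 69.2 and 36.2. In all of these the low pair had 3 to 6 reads, so the intervals are wide (1.39 to 11.2 around a nearest ratio of 3.47 for Grb10). Meg3, another imprinted RNA, overlapped between the pairs, with 16.4 and 19.6 against 40.9 and 9.42.

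Most measured genes of the list for ageing stem cells were above. Of 25 listed, 6 were measured, and libraries 8 and 9 were both above for 5 and both below for 1. Nupr1, a stress-response regulator, had 581 and 247 against 3431 and 1412, with nearest values 2.43-fold apart (2.17 to 2.73). Cpne8, a calcium-dependent membrane-binding protein, had 6.56 and 11.8 against 111 and 39.1. Dhrs3, a retinal reductase, went the other way, with 11725 and 8210 against 4400 and 2859. Alcam, an adhesion molecule, had 0 and 5.89 against 65.0 and 8.69, so library 8 was far above its partner and library 9 lay near the floor.

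The 10 genes furthest below in libraries 8 and 9 are of unlike function and form no list. Cst7 encodes cystatin F, a protease inhibitor of cytotoxic cells. It had 953 and 689 normalized counts in libraries 1 and 2 against 36.7 and 136 in libraries 8 and 9, with nearest values 5.06-fold apart (4.23 to 6.07). Ubash3a, an adaptor that dampens T cell receptor signals, had 709 and 597 against 89.1 and 120. Nkg7, a cytotoxic granule protein, is not one of these 10 but a member of the T and NK list. It had 15844 and 27162 against 2153 and 6507. Of the other 3 measured members of the T and NK list, Lck (11.5, 17.7, 14.7 and 26.8 in libraries 1, 2, 8 and 9) and Cd4 overlapped, and Klrb1c went the other way, with 4.92 and 0 against 68.2 and 12.3. Samd14, a SAM-domain protein, had 5510 and 2871 against 731 and 733, and Rgs10, a regulator of G protein signalling, 3649 and 2073 against 579 and 533. Both were level within the high pair. Bin1, a membrane-bending protein, had 1347 and 917 against 146 and 293, and Kcnj5, a potassium channel, 244 and 232 against 51.4 and 54.3. Slc38a5, an amino acid transporter, had 156 and 298 against 18.9 and 48.5. Lim2, Mrvi1 and Phlda1 had 60.8 to 161 in the low pair and 8.39 to 27.3 in the high pair. Cst7 lies on chromosome 2 from 150570415 to 150578944 and Samd14 on chromosome 11 from 95009879 to 95026087, both protein-coding.

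Erythroid genes differed between the pairs and within them. Of 25 listed, 6 were measured. Libraries 8 and 9 were both below for 5, with a gap of at least 2-fold for 3, and both above for Aqp1, a water channel (5422 and 6161 against 8514 and 7318). Rhd, the Rh blood group protein, had 212 and 665 in libraries 1 and 2, and 3.15 and 98.5 in libraries 8 and 9. The value of library 8 is 3 reads, and library 9 was 31.3-fold higher (10.5 to 154), so the spread within the high pair exceeded the gap of 2.15-fold (1.68 to 2.75) to the low pair. Ermap, an erythroid membrane protein, had 118 and 234 against 10.5 and 50.7. Add2, a membrane skeleton subunit, had 36.1 and 78.5 against 2.10 and 15.9. For all 3, library 8 was lowest and library 2 highest of the 4.

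The promoter of Rhd is printed because this gene was among those furthest apart between libraries 8 and 9, and because its proximal window holds the letters AGATAA, which GATA factors such as the erythroid and megakaryocyte regulator Gata1 bind. The sequence is from RefSeq (GRCm38.p6), chr4:134864286-134864535 on the plus strand, and covers the 250 bases before the start, 5′ to 3′, with AGATAA in capitals.
Rhd: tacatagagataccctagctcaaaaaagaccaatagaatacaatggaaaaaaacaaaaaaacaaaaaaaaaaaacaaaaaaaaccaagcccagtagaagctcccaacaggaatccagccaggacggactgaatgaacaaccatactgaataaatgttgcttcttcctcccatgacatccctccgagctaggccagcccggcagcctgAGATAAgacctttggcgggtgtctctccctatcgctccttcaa
Windows were found for 85 of the 114 genes above and 25 of the 30 below, 1 per gene. AGATAA, or TTATCT on the other strand, occurred in 5 of the 85 (5.88%) and 3 of the 25 (12%). It occurred in 107 of 1778 table genes with a window (6.02%) and in 10.3% of all 27025 genes with one. It was 1 of 7 motifs searched, and the gene was picked to print after its match was seen. A match is a description of the letters and not a bound site.

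Genes of megakaryocytes and platelets were lower in both libraries of the high pair for 10 of 19 measured, with no gap of 2-fold. Of 34 listed, 19 were measured. The high pair was below for 10 (7 with reads scaled to the table total and 8 with median-of-ratios scaling), both above for 2 and overlapping for 7. Median log2 ratios were -0.50 for library 8 over 1, -0.016 for 8 over 2, -0.45 for 9 over 1 and -0.50 for 9 over 2. Some genes counted as below were nearly level between the nearest libraries. These included F2rl2 (6746 and 3254 against 3236 and 1985) and Plek (8544 and 6122 against 6054 and 4152). Pf4, the platelet factor 4 chemokine, had 34116 and 39032 against 19643 and 17894, and Cd9, a tetraspanin of platelets, 20976 and 22049 against 10828 and 12379. Gp5, part of the glycoprotein complex that binds von Willebrand factor, had 8982 and 9211 against 4245 and 5685. Gata1, the transcription factor of the lineage, had 7189 and 6599 against 4170 and 3626, a nearest ratio of 1.58 (1.51 to 1.66). The pair ranges were tight for these 4 genes. Gp9 of the same receptor was in the other direction, with 2313 and 1592 against 3237 and 2699, and so was Sdpr, a caveolar protein (4139 and 3256 against 6255 and 5723). Gp1bb showed the widest spread of the list in the low pair, with 1708 in library 1 and 6673 in library 2.

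Among 24 genes of platelet activation and coagulation, 8 were measured and 7 passed the filter, F5 being under the limit. Libraries 8 and 9 were both below for 4, by 2-fold for 2, and both above for 2. The genes below by less, F10 and Lat, were nearly level between the nearest libraries (625 and 575 against 558 and 483 for F10). With reads scaled to the table total 2 were below, 1 of them by 2-fold, and 2 above. Serpine2, a thrombin inhibitor, had 22652 and 16934 against 6755 and 4493 (nearest ratio 2.51, 2.43 to 2.59), and Grap2, an adaptor of immune receptor signalling, 72.2 and 51.0 against 12.6 and 20.3. Tbxa2r, the thromboxane receptor, had 2298 and 1814 against 3260 and 4020, and Rasgrp2, which activates the platelet GTPase Rap1, 2034 and 2296 against 2805 and 3133.

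Measured G2 and M phase genes were below in 19 of 30 cases, whereas most S phase genes overlapped. Measured genes of oxidative phosphorylation were lower in libraries 8 and 9 by small factors, with Atp5g2 level between the nearest libraries. Of 54 G2 and M phase genes, 30 were measured, and libraries 8 and 9 were both below for 19 (13 with reads scaled to the table total) and both above for 3. Some of those below were nearly level between the nearest libraries, as Ccnb2 with 4152 and 5880 against 2619 and 4143. Cks1b, a cyclin-dependent kinase subunit, had 3140 and 3176 against 1483 and 1970, and Aurka, a mitotic kinase, 1565 and 1307 against 863 and 1003. Of 49 S phase genes 30 were measured, and the pairs overlapped for 24, with 5 below and 1 above. With reads scaled to the table total 7 were above and 4 below. Without library 9 the number below was 20, and without library 1 it was 17, while without library 8 the number above was 10 and without library 2 it was 7. Over all 2341 genes these counts were 879, 906, 857 and 922. Library 9 was often level with the low pair, as for Mcm6, a helicase subunit, with 22076 and 27134 in libraries 1 and 2, 19307 in library 8 and 24499 in library 9. All 11 measured genes of oxidative phosphorylation (54 listed) were counted as lower in both libraries of the high pair, 10 under either other scaling, and 0 by 2-fold. Atp5g2, an ATP synthase subunit, was level between the nearest libraries, with 1481 and 1148 against 1062 and 1148. Cox5a, a cytochrome oxidase subunit, had 9559 and 11250 against 4568 and 6148, and Atp5g1, an ATP synthase subunit, 7095 and 8512 against 3833 and 4688. Library 8 was the lowest of the 4 for both, and library 2 the highest. Median log2 ratios of this list ran from -0.99 (8 over 2) to -0.37 (9 over 1).

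Interferon-stimulated genes were higher or overlapping when all 4 libraries were required. Of 55 listed, 27 were measured, with 14 above, 13 overlapping and 0 below, and 2 with a gap of at least 2-fold. Some of those above were nearly level between the nearest libraries. These included Irf9 (402 and 330 against 581 and 410) and Irf1 (174 and 196 against 252 and 204). Irgm2, an immunity GTPase, had 67.3 and 60.8 against 216 and 175, and Oasl2, an oligoadenylate synthetase relative, 166 and 139 against 431 and 329. Ifi44 had 8.20 and 3.93 against 28.3 and 29.0, with an interval from 1.31 to 11.5. Without library 1, 2 or 9, which requires fewer libraries, 3, 1 and 4 members were below and 18, 19 and 17 above. Of all 2341 genes, 906, 756 and 879 were then below and 900, 922 and 952 above. The list's median log2 ratios were 0.53, 0.27, 0.65 and 0.33 (8 over 1, 8 over 2, 9 over 1 and 9 over 2).

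**Figure D3:**
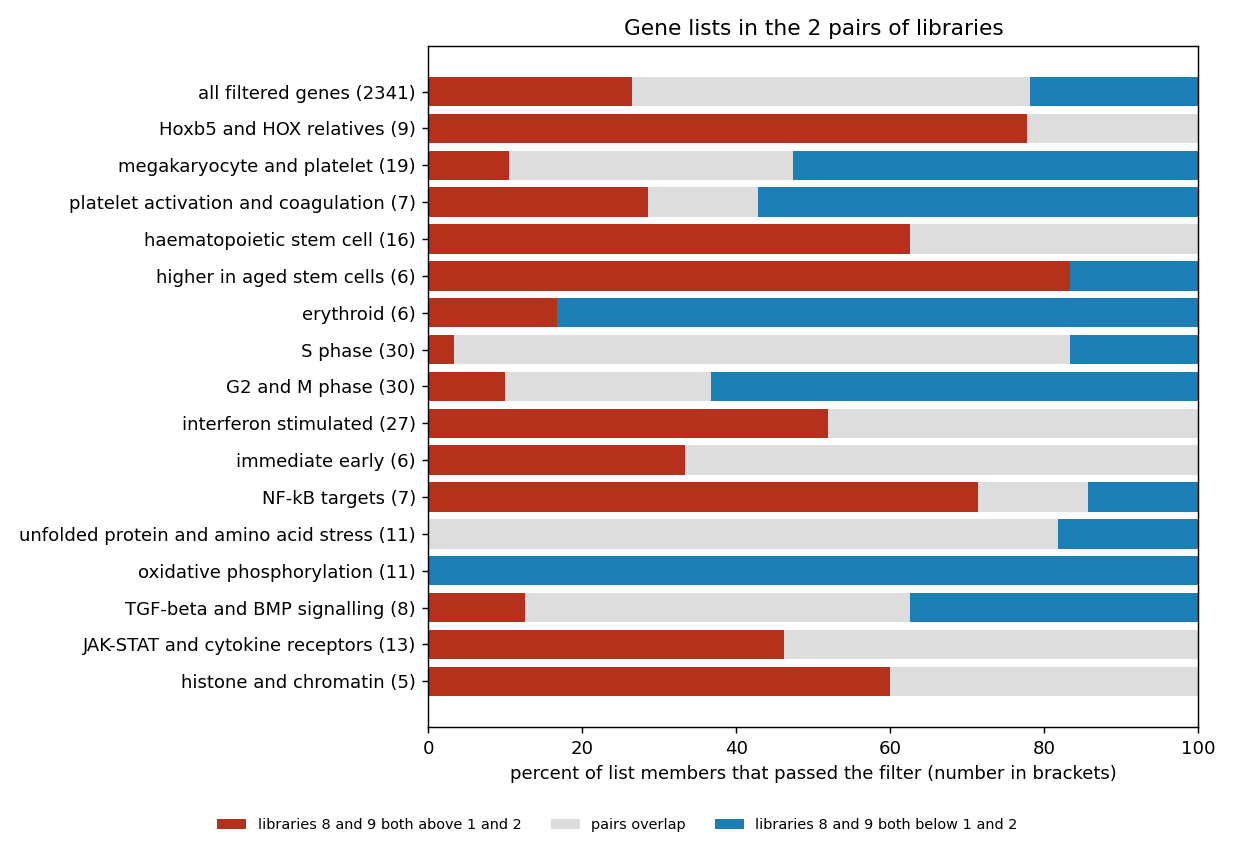
Percent of filtered members (horizontal axis, number in brackets) of each list with at least 5 such members for which libraries 8 and 9 were both above (red), overlapping with (grey) or both below (blue) libraries 1 and 2. Of all 2341 genes 26.5% were above and 21.9% below, beside 10 of 16 stem cell genes above. All 11 oxidative phosphorylation genes were counted as below, with Atp5g2 level between the nearest libraries.

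The smaller lists are given by their counts. Of 13 measured cytokine receptor and JAK-STAT genes (34 listed), 6 were above and 0 below, with Jak3 at 700 and 351 against 2186 and 960 and Stat4 at 120 and 137 against 335 and 225. Of 7 NF-kB targets (21 listed), 5 were above and 1 below. Icam1, an adhesion receptor, had 67.3 and 110 against 300 and 205, while Il1b, an inflammatory cytokine, had 102 and 72.6 against 34.6 and 21.7. With reads scaled to the table total Il1b was no longer 2-fold below. Of 6 immediate-early genes 2 were above (5 with that scaling), of 5 chromatin genes 3 were above, with Dnmt1, the maintenance DNA methyltransferase, at 633 and 475 against 1160 and 896, and of 8 TGF-beta and BMP genes 1 was above and 3 below. Of 11 unfolded protein response genes 2 were below and 0 above, and of 4 p53 targets 2 were below. The 3 cholesterol and 3 glycolysis genes overlapped. With reads scaled to the table total, 2 unfolded protein response genes and 2 cholesterol genes were above. Leaving out 1 library moved several of these small counts, most of all for the unfolded protein response, with 8 below without library 9 and 6 without library 1. Of all 2341 genes, 879 and 906 were below in these settings. Notch1, the 1 measured lymphoid-primed gene, had 6.56 and 1.96 against 16.8 and 11.6.

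Markers of other cells were also read in each library. Of 22 granulocyte and monocyte genes 4 were measured, and their summed level was 889, 1494, 2127 and 1911 normalized counts in libraries 1, 2, 8 and 9. Prtn3, a granule protease also made by early progenitors, accounted for most of it (861, 1356, 2006 and 1767). Cebpa, a myeloid transcription factor, had 1.64, 41.2, 4.19 and 13. Single measured genes were Cd5l for macrophages (21.3, 15.7, 6.29 and 39.8), Fcer1a for mast cells and basophils (103, 31.4, 19.9 and 23.9) and Vpreb1 for the B lineage (at most 12.3). Of 16 endothelial and stromal genes 3 were measured, and their sum was 8.20, 13.7, 72.3 and 26.8. None of these measured markers was at 0 in all 4 libraries, and most markers of each list were not analysed here.

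Some differences within one pair recurred within the other. The rows carry no replicate number or batch, so whether libraries 2 and 9, or 1 and 8, share a batch or preparation was not tested. Between libraries 8 and 9, 209 genes (8.93%) were at least 2-fold higher in library 8 and 127 (5.43%) in library 9. Reads differed beyond counting error for 1278 genes (54.6%; exact conditional binomial test, two-sided, Benjamini-Hochberg adjustment over 2341 genes), of which 257 were also at least 2-fold apart (11.0% of all). Between libraries 1 and 2, 213 genes (9.10%) were at least 2-fold higher in library 2 and 147 (6.28%) in library 1, and 817 (34.9%) passed the test, 147 of them at least 2-fold apart (6.28%). This test compares 2 libraries and not conditions. Of the 127 genes higher in library 9 than in 8, 57 (44.9%) were also higher in library 2 than in 1, which is 26.8% of those 213, and 5 were higher in library 1. Of the 209 higher in library 8 than in 9, 50 (23.9%) were also higher in library 1 than in 2, which is 34.0% of those 147, and 30 were higher in library 2.

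The 57 genes high in both library 2 and library 9 were of several kinds. Those in a list were Cebpa and Ly86 (granulocyte and monocyte), Rhd and Add2 (erythroid), Cd4 (T and NK cell), Gem (immediate early) and Ly6a, and 5 were histone genes of the Hist1h cluster. Others, in no list and named because they were furthest apart or after their values were seen, are known from leukocytes. Lcp1, the actin bundler of white blood cells, had 254 in library 1 and 1935 in library 2, and 563 in library 8 and 2190 in library 9. Lsp1, a leukocyte cytoskeleton protein, had 42.6 and 500, and 158 and 718. Anxa3, an annexin of neutrophils, had 24.6 and 188, and 10.5 and 133. Cxcr2, a chemokine receptor of neutrophils, had 0 and 53, and 4.19 and 58.7. Libraries 2 and 9 were close to each other for all 4 genes, and libraries 1 and 8 were lower. Lcp1 and Lsp1 were higher still in libraries 3 and 4 (10721 and 11829 for Lcp1), whereas Anxa3 and Cxcr2 were not. Ear2, a granulocyte ribonuclease, had 9.84 and 108, and 3.15 and 84.7. The receptors Lilrb4 (13.1, 56.9, 6.29 and 80.4 in libraries 1, 2, 8 and 9), Pilrb1 (19.7, 68.7, 7.34 and 89.1) and Cd300lf (3.28, 31.4, 4.19 and 52.9) followed the same order. Ear2, Lilrb4, Pilrb1 and Cd300lf were at most 6.14 in libraries 3 to 7. Their part in the differences between the pairs was not tested. Lcp1 lies on chromosome 14 from 75131101 to 75230842.

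In the other direction, genes higher in library 8 than in library 9 included some stem cell genes. Of the 16 measured, 7 were at least 2-fold apart between these libraries, beside 336 of all 2341 genes (14.4%). Of those 7, Ly6a was higher in library 9 (71.3 against 187). Emcn and Hlf were also higher in library 9, by less than 2-fold. Procr was 5.61-fold higher in library 8 (3.55 to 9.19), Trim47 5.02-fold (9887 against 1969; 4.81 to 5.24) and Txnip, a redox regulator of quiescent stem cells, 3.03-fold (4854 against 1601). Trim47 and Txnip, named after their values were seen, were also higher in library 1 than in library 2 (2113 against 1021, and 1911 against 801). For both, library 9 fell between libraries 1 and 2. Cish, a feedback inhibitor of cytokine signalling, had 120 and 39.2, and 425 and 127, and the kinase gene Pim1 98.4 and 27.5, and 162 and 44.2. For Cish and Pim1 libraries 1 and 8 were the higher of each pair. Other genes of the cytokine list varied, with Jak3 in the same order and Ifngr2 in the opposite order.

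**Figure D4:**
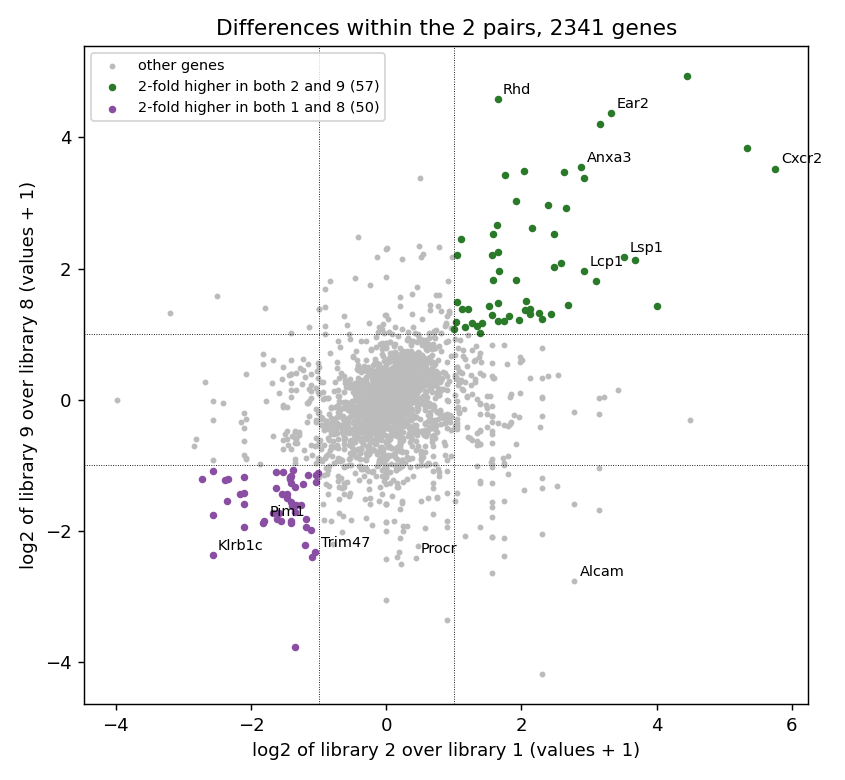
Each point is 1 of 2341 genes, with the log2 ratio of library 2 over library 1 on the horizontal axis and of library 9 over library 8 on the vertical axis (values plus 1, dotted lines at 2-fold). In green are 57 genes at least 2-fold higher in both libraries 2 and 9, with Cxcr2, Ear2 and Lcp1 among them, and in purple 50 genes higher in both libraries 1 and 8.

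The separated genes were also read in the other 5 libraries. Of the 114 genes above in libraries 8 and 9, 107 were higher still in both libraries 3 and 4, 108 were lower in libraries 5, 6 and 7 than in libraries 8 and 9, and 101 (88.6%) had both features. Over all 2341 genes these were 1271, 767 and 694 (29.6%). In 93 of the 114 library 8 was above library 9, by at least 2-fold in 30, and library 9 was above library 8 by 2-fold in 2. Over all 2341 genes these were 1161, 209 and 127. Of the 30 genes below, 25 were lower still in libraries 3 and 4, 29 were higher in libraries 5, 6 and 7, and 25 (83.3%) had both features, beside 703 (30.0%) of all 2341 genes. Library 8 was the lower of its pair in 20 of the 30 genes below, by at least 2-fold in 12. Over all 2341 genes these were 1178 and 127. The libraries were chosen by Hoxb5, which is itself highest in libraries 3 and 4 and lowest in libraries 5 to 7, so these positions are a description only. Some genes near the floor in libraries 1, 2, 8 and 9 passed the filter only through libraries 3 and 4, which fixed their order in advance. An example is Slfn5os, with 0 and 0 against 1.05 and 1.45, and 86.1 and 36.6 in libraries 3 and 4. Tgm2 shows the order, with 86.7 to 129 in libraries 5 to 7, 102 and 149 in libraries 1 and 2, 1014 and 1859 in libraries 9 and 8, and 8582 and 11551 in libraries 3 and 4.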

How the data were processed

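RNA from sorted cells was extracted with Trizol and made into libraries with a NEBNext Ultra kit, per the labels' protocols. The submitters' processing notes name mm10, Bowtie2, STAR and DESeq, without roles or versions. The authors deposited normalized counts (a signal that was scaled in each library) for 2402 genes in 9 unnamed rows. How genes were chosen and scaled is not given in the sources used here. No row was matched to a sample, so the 4 libraries were selected by value alone. The members and the 27 gene lists were chosen with earlier results of these data known.

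Reads were recovered by dividing each library by its step (0.724 to 1.96 normalized counts per read in these 4), and 100% of values were whole within 0.1. Genes had to reach 10 normalized counts in 2 or more libraries (2341), and ratios used a pseudocount of 1, which understates the change of low genes. Printed ratios of nearest values are ratios of deposited values, with 95% exact conditional binomial (Clopper-Pearson) intervals on reads. The 2 tests within pairs used scipy 1.17.1. On simulated reads for 2341 genes they found 78.0% (libraries 8 and 9) and 72.0% (libraries 1 and 2) of genes changed 2-fold, and called 0.280% of unchanged genes in each.

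Named genes were the sort markers, in each list the 4 members with the widest gap between nearest values and the members furthest apart within each pair, and over the table the 10 furthest above, the 10 furthest below and the 10 furthest apart in each pair, with at least 50 normalized counts in the higher libraries and no predicted genes, plus the 5 genes most like Hoxb5. A few genes that meet the rule are not reported here. Other genes named, as further members of a list, were chosen after their values were seen. Coordinates are from GENCODE M21, where 2258 symbols matched. Reads of overlapping genes and paralogs cannot be separated.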

Additional observations from a re-analysis of the deposited data

How the results depend on the processing

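The 4 counts (genes at least 2-fold above, at least 2-fold below, and apart within each pair) were recomputed under 9 other settings, and the counts above and below also without each library in turn. They stayed within 1.5 times of 114, 30, 336 and 360 with a pseudocount of 0.5, no filter, either other scaling, and values under 3 reads raised to 3 reads. In the last of these settings they were 82, 30, 302 and 244. With a pseudocount of 5, genes above numbered 73, genes apart in libraries 8 and 9 222, and in libraries 1 and 2 202. The last was also 202 with a filter of at least 50. By construction, a 1.5-fold threshold gave more (214, 75, 723 and 709) and a 4-fold threshold fewer (27, 4, 64 and 85). Leaving out a library requires fewer values to be apart, and gave 136 to 273 genes above and 48 to 100 below. Scaling to the table total shifted the median log2 value of library 8 by 0.19 and of library 2 by -0.15, and median-of-ratios scaling shifted library 1 by 0.12. Of 94 named genes with separated pairs, none changed direction, but the pairs came to overlap for Id2 (scaling to the table total) and for Hoxb6 and Hoxb8 (values raised to 3 reads). Of their recomputed gaps 877 stayed close to the reported gap and 150 moved further, by a limit of the gap divided by 3 since no SD exists. Filters drop low genes, which then give no value. No paired analysis was possible because the rows carry no replicate numbers. Low genes are limited by depth, since 3 reads are worth 2.17 to 5.89 normalized counts.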
